A study of Mus musculus with 4 samples.

Results

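The comparison described here set the array of sham-operated male mice given GW4869 (GW-Sham) against that of sham-operated male mice given the vehicle DMSO (Veh-Sham), in RNA of the fat pad beside the epididymis. The members are the 2 sham arrays of a series of 4, and the values compared are those of 11703 genes of 19505 measured. The other 2 arrays came from mice with synergist ablation, an operation that overloads a muscle by removing its helpers, given DMSO (Veh-SA) or GW4869 (GW-SA). Each group had 1 array and GW4869 is labelled as an inhibitor of extracellular vesicles. The sources used here give neither strain, age, dose and duration nor whether an array held RNA of 1 mouse or a pool.

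GW4869 inhibits neutral sphingomyelinase, an enzyme that makes ceramide in membranes and helps vesicles bud into the endosomes from which exosomes are shed. Fat tissue holds adipocytes, which store and release lipid, beside macrophages that clear dying adipocytes and stray lipid, fibroblasts that lay down the collagen around each cell, mast cells and vessels. Adipocytes and their neighbours exchange vesicles. The sham pair answers how fat with and without the drug differed where no muscle was overloaded.

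All values are the deposited log2 levels, and a difference is GW-Sham minus Veh-Sham unless said otherwise. No group was replicated, so no error or test can be given, and precision is limited by having 1 array for each. Counts use a fold of 1.5 (0.585 log2 units) and describe these arrays. Genes were kept where their mean over the 4 arrays exceeded a floor of log2 4.67. Readings at or under the 95th percentile of 23 background probes, 6.34 to 6.40 by array, are called background readings. A difference from one is given as a bound, and none is given for a named gene between 2 of them. Counts and medians of lists use all members above the floor, background readings included, unless said otherwise. The log2 scale ran to 19.93, and the step that gave this range was not identified, so a doubling is one on the deposited scale only. In bulk tissue, more cells of a type and more RNA per cell cannot be told apart.

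The 2 sham arrays first differed in transcripts of the male reproductive tract, which Veh-Sham carried. All 23 of the sperm and testis genes above the floor stood at least 1.5-fold higher on Veh-Sham than on each other array. Their medians were 14.04 on Veh-Sham, 3.55 on GW-Sham, 4.01 on Veh-SA and 4.63 on GW-SA. Because the floor is a mean over the 4 arrays, genes low elsewhere passed it through Veh-Sham, so this count is partly fixed by the filter. Over all 30 measured genes of the list the medians were 12.96, 3.45, 3.77 and 3.76 in the same order. Prm1 and Prm2, the protamines that pack sperm DNA, read 17.40 and 17.92 on Veh-Sham and 4.71 and 3.66, both background readings, on GW-Sham. Cyp17a1, a steroid enzyme of Leydig cells, read 14.49 on Veh-Sham and 3.41 on GW-Sham. Genes of the distal tract were alike on both sham arrays for part of the list: the cyclooxygenase gene Ptgs2 read 14.26 and 14.30 there, against background readings of 2.52 and 6.18 on Veh-SA and GW-SA. The GW-Sham array was thus low in germ cell and Leydig cell transcripts but carried some distal tract transcripts, as Veh-Sham did. Their part in the other differences was not tested.

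Germ cell transcripts were kept apart by setting aside 951 genes, either on a tract list or at least 1 log2 unit higher on Veh-Sham than on each other array. On Veh-Sham, 922 genes (7.88%) stood at least 1 log2 unit above each other array and 335 (2.86%) at least 4. Over all genes, 402 differed by -4 or less, 394 of them among those set aside, and 4 by 4 or more. Over all 11703 genes, 3385 were at least 1.5-fold higher on GW-Sham (28.9%) and 1690 lower (14.4%), and the median difference was 0.27. The 10752 genes kept held 3379 higher (31.4%) and 760 lower (7.07%). Setting genes aside removes lower genes by construction, since 922 of the 951 were chosen for being higher on Veh-Sham, so nothing is read from the change in these counts. With a trend of the difference on signal level removed, 1708 genes were higher and 2513 lower. Higher genes then made up 40.5% of those called, against 66.7% without that step, so the balance of directions over all genes depended on it. The share was 75.4% with arrays centred on the median of all table rows.

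**Figure D1:**
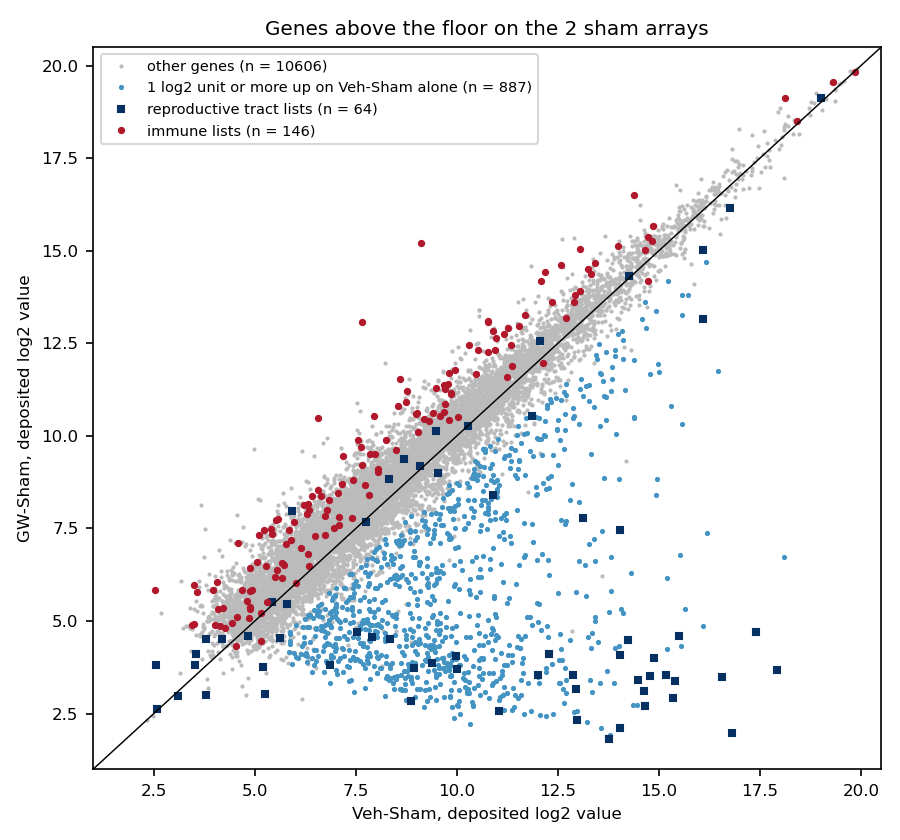
Deposited log2 values of the 11703 genes above the floor on Veh-Sham (x axis) and GW-Sham (y axis), 1 point per gene, with the line of equal values. The 887 genes raised on Veh-Sham alone (light blue) and 43 of the 64 tract list genes (dark squares) lie at least 1.5-fold under the line, while most of the 146 immune list genes drawn in red lie above it; 2 other immune list genes are drawn in the former classes.

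A difference between the sham arrays can come from either array. Veh-Sham stood at least 1.5-fold below each other array for 1340 genes (11.5%) and above each for 1171 (10%). GW-Sham stood above each other array for 345 genes (2.95%) and below each for 130 (1.11%), of which 67 were outside the genes set aside. So that no call rests on Veh-Sham alone, counts are also given of genes with GW-Sham at least 1.5-fold above both vehicle arrays, which held for 933 genes (7.97%) and, in the other direction, for 326 (2.79%). Both GW4869 arrays read above both vehicle arrays for 2570 genes (22.0%) and below both for 1310 (11.2%).

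Immune genes were the programme most widely higher on GW-Sham. Of 148 immune list genes above the floor, 116 were at least 1.5-fold higher, or 78.4% against 28.9% of all genes, 3 were lower, and the median difference was 1.25. Veh-Sham stood at least 1.5-fold below each other array for 59 of the 148, and GW-Sham above each for 20. Over all genes these shares were 11.5% and 2.95%. Against both vehicle arrays at once, 73 of the 148 were higher (49.3%, against 7.97% of all genes). On both GW4869 arrays 96 of the 148 read above both vehicle arrays (64.9%, against 22.0% of all genes). Where both sham readings exceeded background, 78 of 96 were higher, against 2274 of all 8130 such genes. The 3 lower genes were Aif1, Clu and Ptx3, and Ptx3 was at background on every array.

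**Figure D2:**
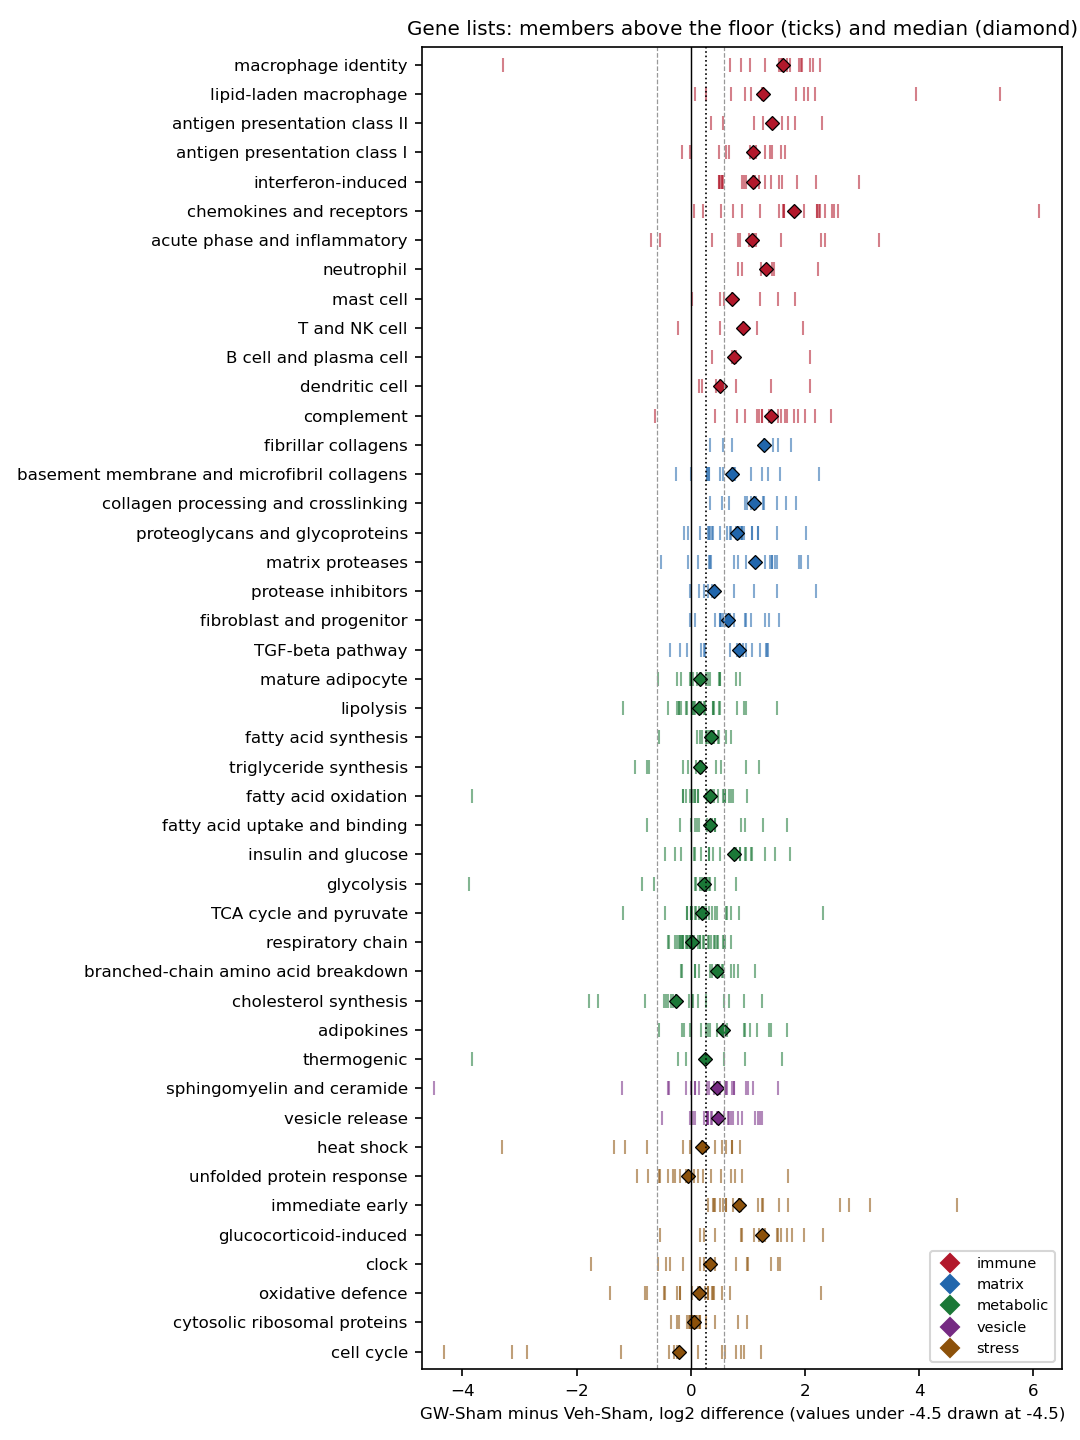
Difference of GW-Sham minus Veh-Sham (log2, x axis) for each list member above the floor (ticks) and the list median (diamonds), coloured by programme. Dashed lines mark 1.5-fold and the dotted line the median of all genes, 0.27; macrophage, chemokine, complement and class II lists have medians of 1.41 to 1.81, and the respiratory chain list one of 0.01.

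Macrophage genes were higher across the list, by a median of 1.62, with 16 of 17 higher and 12 of 17 also at least 1.5-fold above both vehicle arrays. Itgam, an integrin of myeloid cells, read 8.55 on Veh-Sham, 10.81 on GW-Sham, 9.29 on Veh-SA and 11.65 on GW-SA, a sham difference of 2.26. Lyz2, the macrophage lysozyme, read 14.37 and 16.50 on the sham arrays and 15.08 and 16.46 on Veh-SA and GW-SA. For both genes the 2 GW4869 arrays lay above the 2 vehicle arrays. Csf1r, the receptor for the growth factor macrophages live on, read 11.16, 12.75, 11.69 and 12.05 on Veh-Sham, GW-Sham, Veh-SA and GW-SA. Adgre1, which encodes the F4/80 antigen, read 7.97 and 9.52 on the sham arrays, and Cd163, a scavenger receptor for haemoglobin, 8.98 and 10.58. Mrc1, the mannose receptor of resident tissue macrophages, differed by 0.88 and Folr2, a folate receptor of the same cells, by 1.94. The exception was Aif1, at 11.16 on Veh-Sham and 7.86 on GW-Sham, a gene that the testis also expresses.

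Genes of lipid-handling macrophages included 2 of the 10 largest positive differences of all genes ranked. Gpnmb, a lysosomal glycoprotein of foam cells, read 7.66 on Veh-Sham and 13.08 on GW-Sham, with 9.50 on Veh-SA and 14.53 on GW-SA, a sham difference of 5.42. Atp6v0d2, a subunit of the lysosomal proton pump, read 6.55 and 10.49 on the sham arrays and 8.20 and 12.62 in the overloaded pair. Both genes separated the arrays by treatment. Trem2, a lipid receptor of these macrophages, read 6.56 and 8.54, Lgals3, a galectin of the same cells, 8.75 and 10.92, and Mmp12, the macrophage elastase, 12.57 and 14.62 on Veh-Sham and GW-Sham. GW-Sham was the highest array for Trem2 and Mmp12, while GW-SA was the highest for Lgals3. Lipa, the lysosomal lipase, differed by 1.26 and Cd9, a tetraspanin, by 1.25. Lpl and Apoe, which adipocytes also express, differed by 0.08 and 0.26. In all, 11 of 13 members were higher, 0 were lower, and the median was 1.26. Other ranked genes of phagocytes were Cd84, an adhesion receptor of leukocytes (9.59 on GW-Sham, against a background reading, so at least 3.20), and Cd44, the hyaluronan receptor (7.53 and 10.88). Wfdc17, a small secreted protein of macrophages, read 8.23 and 11.96. Tlr13, a receptor for bacterial RNA, Plaur, the urokinase receptor, and Chil1, a chitinase-like protein, read 7.87, 7.48 and 8.12 on GW-Sham against background readings on Veh-Sham, so they were at least 1.48, 1.09 and 1.73 higher.

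**Figure D3:**
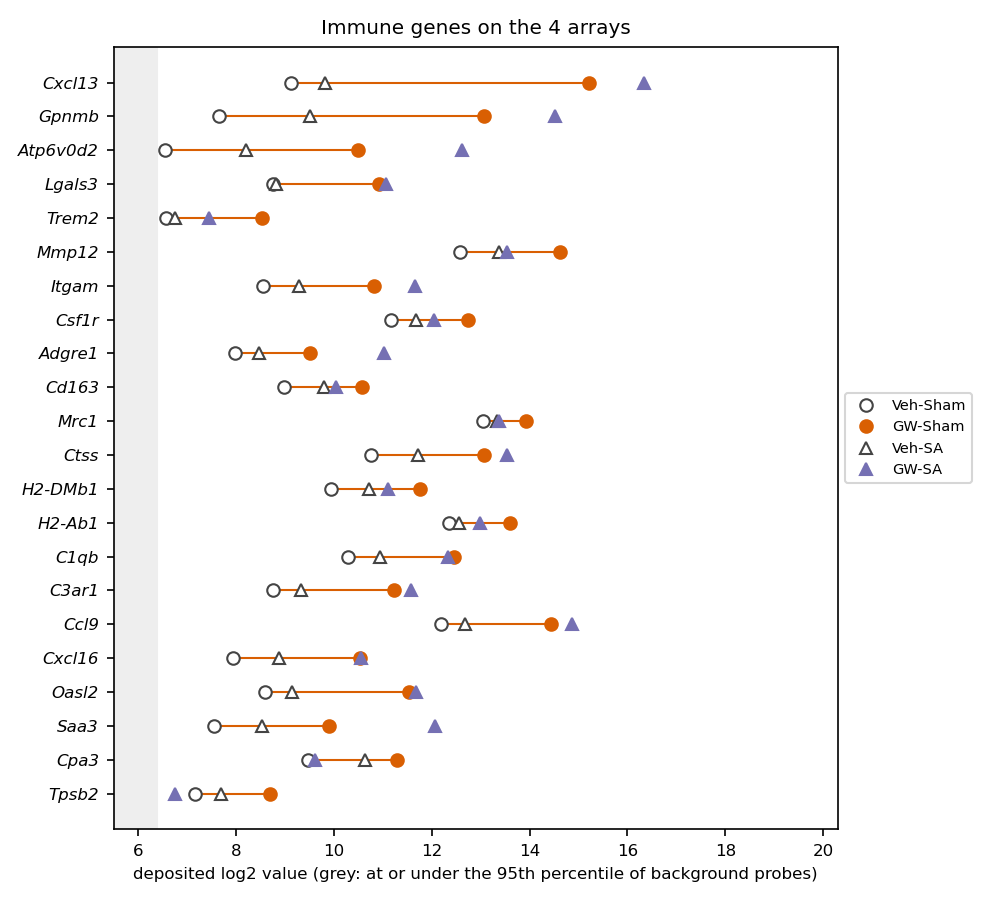
Deposited log2 values (x axis) of 22 immune genes on the 4 arrays, with a line joining the 2 sham arrays; circles are sham, triangles overloaded, open symbols vehicle and filled ones GW4869. Cxcl13, Gpnmb and Atp6v0d2 lie high on both GW4869 arrays, whereas the mast cell genes Cpa3 and Tpsb2 lie high on GW-Sham and low on GW-SA.

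Chemokines, which draw leukocytes along gradients, had the highest median of the immune lists, 1.81. Of 20 members 17 were higher, 14 of them against both vehicle arrays. Where both sham readings exceeded background, 8 of 9 members were higher. Their median was 1.64, beside 1.62 for macrophage genes so filtered. Cxcl13, which attracts B cells, had the largest positive difference of the ranked genes. It read 9.12 on Veh-Sham and 15.22 on GW-Sham, 68.5-fold on the deposited scale, and 9.82 on Veh-SA and 16.33 on GW-SA. Cxcl16, a chemokine that also acts as a scavenger receptor, read 7.95 and 10.53, and Ccl9, a myeloid chemokine, 12.18 and 14.43 on Veh-Sham and GW-Sham. Each of these 3 was lower on both vehicle arrays than on either GW4869 array. Ccl2 and Ccl7, which recruit monocytes, read 7.33 and 7.45 on GW-Sham against background readings on Veh-Sham, at least 0.93 and 1.06 higher, and stood higher still on GW-SA at 10.94 and 9.45. Ccr2, their receptor, read 8.25 and 9.89 on the sham arrays. Ccl21a, a chemokine of lymphatic vessels and lymph nodes, read 10.77 on Veh-Sham and 13.11 on GW-Sham but 11.61 and 10.97 on Veh-SA and GW-SA, so GW-Sham stood apart. Ccl21b and Ccl21c shared 1 set of values, 10.56, 13.38, 11.80 and 11.06 in the same order. The 3 genes are near-identical copies that probes can confuse, and they count as 1 signal.

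Of the complement genes 17 of 19 were higher and 1 lower (median 1.41). C3ar1, the receptor for the C3a fragment, read 8.77 on Veh-Sham, 11.22 on GW-Sham, 9.32 on Veh-SA and 11.58 on GW-SA. The 3 chains of C1q, which starts the classical pathway and is made by macrophages, differed by 1.37 (C1qa), 2.17 (C1qb) and 1.69 (C1qc). Cfb, of the alternative pathway, differed by 1.88. C6 and C7, parts of the membrane attack complex, differed by 1.80 and 1.99, but both were also high on Veh-SA, at 12.42 and 14.76 against 12.32 and 15.04 on GW-Sham. The member lower by 1.5-fold was Clu, a chaperone abundant in epididymis, at 16.76 on Veh-Sham and 16.14 on GW-Sham, and 19.40 on GW-SA.

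Antigen presentation genes were higher in both classes. Of 8 class II genes 6 were higher and 0 lower (median 1.43), and of 12 class I genes 9 were higher and 0 lower (median 1.09). Ctss, the protease that trims the class II invariant chain, read 10.76 on Veh-Sham and 13.06 on GW-Sham, with 11.73 and 13.55 on Veh-SA and GW-SA. H2-DMb1, which helps load class II with peptide, read 9.94 and 11.77, and H2-Ab1, a class II beta chain, 12.35 and 13.61 on Veh-Sham and GW-Sham. GW-Sham was the highest array for both of these. H2-Eb1 differed by 1.10 and H2-Aa, an alpha chain, by 0.36. Against both vehicle arrays 5 of 8 class II genes (62.5%) and 2 of 12 class I genes (16.7%) were higher, against 7.97% of all genes. The 2 class I genes were H2-T23 and Psmb10. Psmb8 and Psmb9, subunits of the immunoproteasome, differed by 1.57 and 1.42 but read 8.95 and 8.13 on Veh-SA against 9.22 and 8.25 on GW-Sham. B2m, the light chain of class I, differed by -0.01 at a level of 19.83, near the top of the scale.

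Of the interferon-induced genes 13 of 19 were higher and 0 lower (median 1.08), and 7 were higher against both vehicle arrays. Oasl2, of the 2'-5' oligoadenylate synthetase family, read 8.59 on Veh-Sham and 11.53 on GW-Sham, with 9.15 and 11.67 on Veh-SA and GW-SA. Ifit3, an antiviral protein, read 9.41, 10.61, 9.92 and 12.16 on Veh-Sham, GW-Sham, Veh-SA and GW-SA. Bst2, which tethers budding virus, read 7.06 and 8.46 on the sham arrays, and Gbp2, a guanylate-binding protein, 9.86 and 11.16. In each of these 4 genes both GW4869 arrays lay above both vehicle arrays. Irf7, a transcription factor of the pathway, read 7.75 on GW-Sham against a background reading, at least 1.35 higher. The chemokines Cxcl9 and Cxcl10, also induced by interferon, did not reach 1.5-fold, with Cxcl10 at background on both sham arrays.

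The promoters of Ifit3, Bst2 and Gbp2 are shown because these interferon-induced genes stood above both vehicle arrays and hold the interferon response element, searched on both strands as TTTC, any 2 bases and TTTC again. Each stretch runs from 250 bases before to 50 after the gene's start, 300 bases of the RefSeq table on GRCm38.p6, with the matches in capitals; in Bst2 a pair of matches overlap.
Ifit3, chr19:34583279-34583578, plus strand: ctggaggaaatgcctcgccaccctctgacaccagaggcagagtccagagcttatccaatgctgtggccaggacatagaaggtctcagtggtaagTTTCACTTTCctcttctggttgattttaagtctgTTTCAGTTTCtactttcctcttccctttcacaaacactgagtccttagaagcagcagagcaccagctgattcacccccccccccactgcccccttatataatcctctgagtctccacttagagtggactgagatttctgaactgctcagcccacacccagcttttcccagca
Bst2, chr8:71537423-71537722, minus strand: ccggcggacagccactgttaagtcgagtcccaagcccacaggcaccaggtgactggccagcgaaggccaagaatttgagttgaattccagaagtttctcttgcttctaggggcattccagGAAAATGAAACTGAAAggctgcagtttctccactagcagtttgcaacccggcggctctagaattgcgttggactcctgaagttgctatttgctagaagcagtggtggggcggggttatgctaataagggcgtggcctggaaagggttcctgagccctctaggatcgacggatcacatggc
Gbp2, chr3:142620413-142620712, plus strand: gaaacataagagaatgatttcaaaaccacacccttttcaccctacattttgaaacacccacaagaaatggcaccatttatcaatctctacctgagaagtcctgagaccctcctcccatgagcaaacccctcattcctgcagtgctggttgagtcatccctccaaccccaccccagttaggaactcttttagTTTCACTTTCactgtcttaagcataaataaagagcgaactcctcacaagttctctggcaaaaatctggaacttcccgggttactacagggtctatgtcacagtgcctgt
The matches began 59 to 156 bases before the start. Promoters of 19 of the 24 list genes were in the table, and 12 of these genes held the element in any promoter. Of all 32851 promoters, which belong to 27025 genes, 3.44% held it, a share per promoter and not per gene. Of the 12, 10 lay above the floor, 9 of them at least 1.5-fold higher (median 1.16), and of the genes without a match 6 lay above the floor, 2 of them higher (median 0.56).

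For the class II genes the letters searched were TGATTGG on both strands, which include the CCAAT box that sits in the Y box of class II promoters. H2-Eb1 and H2-DMb1 are shown because both are well above background and at least 1.5-fold higher on GW-Sham, and the matches began 61 and 63 bases before the start.
H2-Eb1, chr17:34305617-34305916, plus strand: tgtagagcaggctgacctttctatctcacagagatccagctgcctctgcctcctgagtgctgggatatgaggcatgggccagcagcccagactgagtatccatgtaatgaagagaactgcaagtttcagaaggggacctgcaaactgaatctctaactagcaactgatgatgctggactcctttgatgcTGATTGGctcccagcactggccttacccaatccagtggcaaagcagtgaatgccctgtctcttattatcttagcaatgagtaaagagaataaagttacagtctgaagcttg
H2-DMb1, chr17:34152941-34153240, plus strand: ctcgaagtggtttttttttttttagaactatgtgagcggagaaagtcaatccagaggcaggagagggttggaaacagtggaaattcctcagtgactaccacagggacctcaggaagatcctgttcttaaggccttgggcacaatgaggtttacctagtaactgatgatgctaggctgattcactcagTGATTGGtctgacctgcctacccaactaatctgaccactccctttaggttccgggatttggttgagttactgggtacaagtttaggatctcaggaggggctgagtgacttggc
The letters occurred in any promoter of 5 of 7 class II list genes in the table, and in 7.82% of all promoters, counted per promoter. Here 3 of the 4 genes above the floor with a match were higher (median 1.40), as were 2 of 2 without one (median 1.95). Matches describe the letters in these windows, not sites in use.

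Acute phase and inflammatory genes were higher in 9 of 12 cases and lower in 1, with medians of 1.07 in sham and 2.10 in the overloaded pair. Saa3, the serum amyloid A of fat and macrophages, read 7.55, 9.90, 8.53 and 12.06 on Veh-Sham, GW-Sham, Veh-SA and GW-SA. Tnfaip3 and Nfkbia, which restrain NF-kappa-B, differed by 2.27 and 1.57. Hp, haptoglobin, read 18.12 and 19.14 on the sham arrays, and Lcn2, lipocalin 2, 14.73 and 14.19. The cytokine genes Il1b, Il6 and Tnf were at background on both sham arrays, and on GW-SA Il1b and Il6 read 9.88 and 7.88. Neutrophil genes were mostly in background, with 12 of 12 measured members there on Veh-Sham and 11 of 12 on GW-Sham, so their list median of 1.32 carries no direction. S100a8 and S100a9 read 4.90 and 4.92 on GW-Sham but 8.63 and 7.94 on GW-SA.

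Mast cell genes differed by 0.72 as a median, with 4 of 7 higher (57.1%, against 28.9% of all genes) and 0 lower. GW-Sham was the highest array for the proteases Cpa3 and Tpsb2. Cpa3, mast cell carboxypeptidase, read 9.47 on Veh-Sham, 11.29 on GW-Sham, 10.65 on Veh-SA and 9.61 on GW-SA. Tpsb2, a tryptase, read 7.16, 8.69, 7.69 and 6.76 in the same order. The chymase Mcpt4 differed by 1.22 but was highest on Veh-SA, at 8.17. Lymphocyte lists were thin: 5 of 18 measured T and NK cell genes and 4 of 13 B cell genes lay above the floor, with medians of 0.91 and 0.76, or 0.56 and 0.39 over all measured members. Il7r, the interleukin 7 receptor, read 6.40 and 8.37 on the sham arrays, and Jchain, the joining chain of antibodies, 7.62 and 9.71. Cd4 and Cd2 were at background on all 4 arrays. Dendritic cell genes were higher in 3 of 7 cases (42.9%, against 28.9% of all genes), with a median of 0.51. Nearly all of these lists thus rest on a few genes that clear background.

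Matrix genes were higher on GW-Sham in 76 of 122 cases (62.3%), against 28.9% of all genes, with 0 lower and a median difference of 0.81, or 0.48 with the signal trend removed. Against both vehicle arrays 30 of the 122 were higher (24.6%, against 7.97% of all genes). On both GW4869 arrays 31 read above both vehicle arrays (25.4%), near the 22.0% of all genes. Among fibrillar collagens 5 of 7 above the floor were higher, with a median of 1.28, which was 0.56 over all 11 measured. Col1a1 and Col1a2, the chains of type I collagen, read 7.33 and 9.47 on Veh-Sham, 8.76 and 11.23 on GW-Sham, 7.86 and 9.87 on Veh-SA, and 8.28 and 9.98 on GW-SA. Col3a1, its partner in soft tissue, read 12.73 and 14.26 on the sham arrays and 13.50 and 13.48 in the overloaded pair. GW-Sham was the highest of the 4 arrays for each of these 3 collagens, and the overloaded arrays lay close together.

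Basement membrane and microfibril collagens had 9 of 17 genes higher and 0 lower, with a median of 0.72. Col6a5 and Col6a1, chains of the collagen VI that wraps adipocytes, read 7.53 and 8.94 on Veh-Sham and 9.78 and 10.19 on GW-Sham, above 8.34 and 9.46 on Veh-SA. Col4a1 and Col4a2, of the basement membrane itself, differed by 0.75 and 1.06, but Veh-SA read higher than or close to GW-Sham, at 8.51 and 9.46 against 8.10 and 9.41. Nid1, which links laminin to collagen IV, differed by 0.00. Enzymes that process and crosslink collagen were higher in 11 of 13 cases (median 1.10): Bmp1, which cuts the propeptide, differed by 1.83, Plod2, a lysyl hydroxylase, by 1.67, and Lox, lysyl oxidase, by 0.99.

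Proteoglycans and glycoproteins were higher in 17 of 26 cases, with a median of 0.81. Lum, lumican, read 10.47 and 12.49 on the sham arrays and 12.14 on Veh-SA, so Veh-Sham was the array that stood low. Fn1, fibronectin, read 13.38 and 14.45 on the sham arrays and 13.30 and 13.99 on Veh-SA and GW-SA, with both GW4869 arrays higher. Sparc and Dcn, among the most abundant matrix genes at 19.09 and 19.25 on GW-Sham, differed by -0.05 and 0.38. Matrix proteases were higher in 12 of 18 cases, with a median of 1.13. Mmp2, a gelatinase, read 9.54 and 11.48 on the sham arrays and 11.13 on Veh-SA, and Mmp14, its membrane-bound activator, 8.44, 10.33 and 9.51. Adamts5, an aggrecanase, differed by -0.05. Their inhibitors were higher in 4 of 10 cases (median 0.40). Timp2 read 14.29, 15.40, 14.50 and 14.28 on Veh-Sham, GW-Sham, Veh-SA and GW-SA, and Timp1 was at background on both sham arrays but read 9.64 on GW-SA.

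TGF-beta pathway genes, which drive fibroblasts to make matrix, were higher in 10 of 16 cases, with a median of 0.84. The ligands Tgfb1 and Tgfb3 differed by 1.32 and 1.21, the receptor Tgfbr3 by 0.92, the signal carrier Smad3 by 1.07 and the target Tgfbi by 1.35. Tgfb1 read 9.84 on Veh-Sham, 11.16 on GW-Sham, 10.68 on Veh-SA and 11.35 on GW-SA. Among fibroblast and progenitor markers 9 of 16 were higher and 0 lower (median 0.66). Cd34, a marker of adipose progenitors and endothelium, read 13.09, 14.14, 13.29 and 13.06 in the order of the arrays above, and Pi16, of a fibroblast reservoir, 6.43, 7.73, 7.41 and 6.82. GW-Sham was the highest array for both.

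Metabolic genes stayed near the bulk of the genes. Of 247 metabolic list genes 56 were higher (22.7%, against 28.9% of all genes) and 13 lower (5.26%, against 14.4%). The list median was 0.23 beside 0.27 for all genes, and 0.019 with the signal trend removed. The 14.4% includes the genes set aside as raised on Veh-Sham or on tract lists. Of the genes kept 31.4% were higher and 7.07% lower, with a median of 0.325. Against both vehicle arrays 9 of 247 were higher (3.64%, against 7.97%). Mature adipocyte genes had list medians of 16.30 on Veh-Sham and 16.26 on GW-Sham, and their median difference was 0.17 with 2 of 18 higher and 0 lower. Adipoq and Fabp4, the adiponectin and fatty acid binding protein genes, read 19.59 and 19.90 on Veh-Sham and 19.58 and 19.91 on GW-Sham, at or near the top of the scale, where a difference may not show. Lep, leptin, read 15.45 and 15.75. Pparg, the regulator of fat cell identity, differed by -0.58, just short of the fold used. The 2 members past it were Slc2a4, the insulin-responsive glucose carrier (9.77 and 10.63), and Cebpa, a transcription factor of adipocytes (12.74 and 13.54).

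In lipolysis, the process named in the series title, 4 of 25 genes were higher (16.0%, against 28.9% of all genes) and 1 lower. The list median was 0.14. Pnpla2 and Lipe, the lipases that cut triglyceride and diglyceride, read 18.35 and 16.94 on Veh-Sham, 18.53 and 17.42 on GW-Sham, 18.77 and 17.85 on Veh-SA, and 18.54 and 17.06 on GW-SA. Mgll, which completes the process, differed by -0.07 and Plin1, the lipid droplet coat, by 0.04. The higher members were Hcar2 (7.52 and 9.04) and Hcar1 (12.13 and 13.06), receptors for ketone bodies and lactate that restrain lipolysis, and the adenylate cyclases Adcy3, by 0.97, and Adcy4, at background on both sham arrays. Hcar1 and Hcar2 read higher still on Veh-SA, at 14.32 and 9.91. The lower member, Prkg1, was at background on both sham arrays.

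For fatty acid synthesis, 2 of 15 genes were higher (13.3%, against 28.9% of all genes) and 0 lower, and the median was 0.36. Fasn, the fatty acid synthase, read 15.93, 16.22, 15.65 and 12.58 on Veh-Sham, GW-Sham, Veh-SA and GW-SA, so only GW-SA stood low. Acaca, which supplies its malonyl-CoA, differed by 0.20, and Scd1, the desaturase, by 0.11. Triglyceride synthesis had 2 of 14 genes higher (14.3%) and 3 lower (21.4%, against 14.4% of all genes), with a median of 0.16. Dgat1, the last enzyme of the route, read 9.18 and 10.37, and Gpam, the entry enzyme, 14.12 and 15.09, whereas the acyltransferases Agpat1, Agpat3 and Gpat4 differed by -0.97, -0.77 and -0.74. For fatty acid oxidation, 7 of 22 genes were higher (31.8%, near the 28.9% of all genes) and 1 lower (median 0.33). Slc25a20, the carnitine carrier, differed by 0.98, and Cpt1a, the entry enzyme, by 0.47. The lower member was Cpt1b, at 7.68 on Veh-Sham and background on the other arrays, a gene with a testis form. Among uptake genes 4 of 14 were higher (28.6%, near the 28.9% of all genes) and 1 lower. Of the uptake genes, Angptl4, which inhibits lipoprotein lipase, read 14.54, 16.23, 15.25 and 15.56 on Veh-Sham, GW-Sham, Veh-SA and GW-SA.

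**Figure D4:**
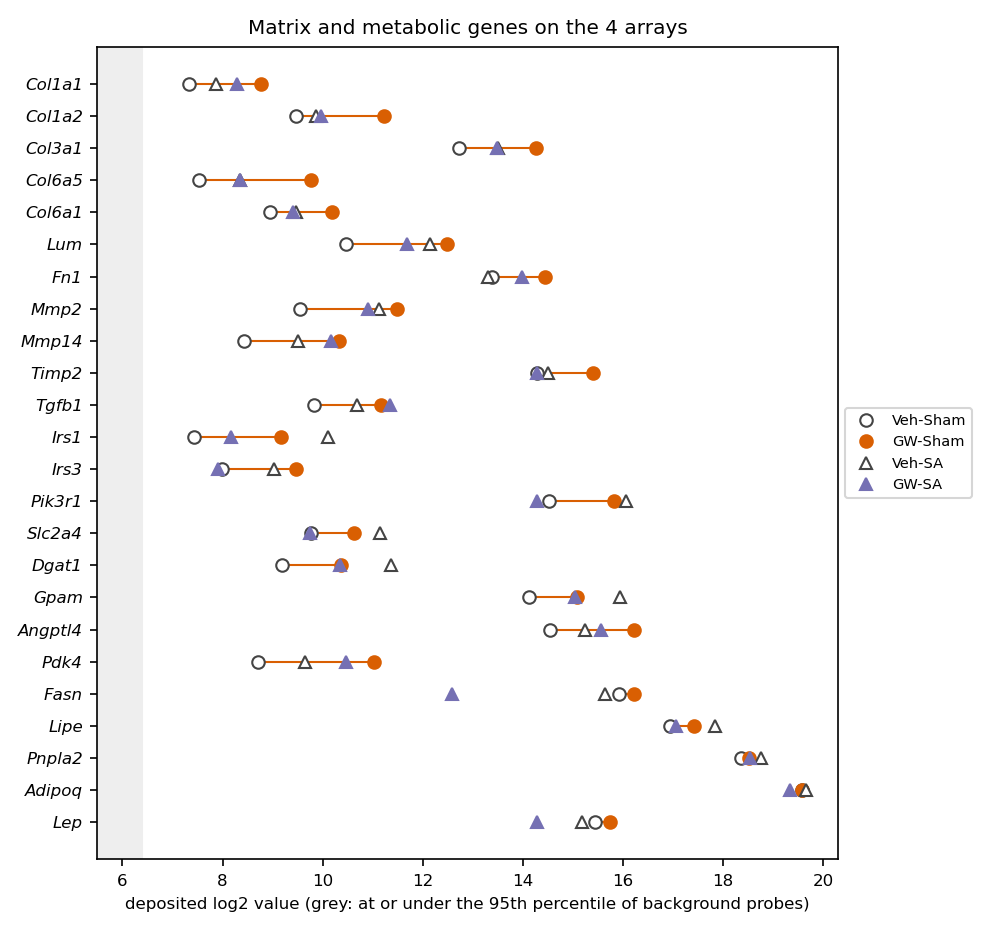
Deposited log2 values (x axis) of 11 matrix and 13 metabolic genes on the 4 arrays, drawn as for the immune genes. GW-Sham lies highest for the collagens Col1a1, Col1a2 and Col3a1, whereas Veh-SA lies highest for Irs1, Pik3r1, Slc2a4, Dgat1 and Gpam, and Adipoq reads alike on the sham arrays.

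Insulin and glucose handling was the metabolic list with the highest median, 0.76, with 11 of 21 genes higher (52.4%, against 28.9% of all genes) and 0 lower. Irs1, an insulin receptor substrate, read 7.44 on Veh-Sham, 9.18 on GW-Sham, 10.12 on Veh-SA and 8.16 on GW-SA. Irs3, a substrate of rodent fat, read 7.98, 9.47, 9.03 and 7.91, and Pik3r1, a regulatory subunit of PI3-kinase, 14.52, 15.82, 16.07 and 14.29 in the same order. Tbc1d4, which gates glucose carriers, differed by 1.06 and Foxo1, a transcription factor that insulin silences, by 0.96. Veh-Sham and GW-SA were the 2 low arrays for all 3 genes. Against both vehicle arrays 3 of the 21 were higher (14.3%, against 7.97% of all genes), and Insr and Irs2 differed by 0.32 and 0.07. Breakdown of branched-chain amino acids had 4 of 16 genes higher (median 0.45), a share below the 28.9% of all genes. Bckdha, of the dehydrogenase complex, led them at 1.13, and 0 of 16 were higher against both vehicle arrays.

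In the respiratory chain 2 of 36 genes were higher (5.56%, against 28.9% of all genes) and 0 lower. All differences lay between -0.40 and 0.70, and the median was 0.01. Of the TCA cycle and pyruvate genes 5 of 24 were higher (20.8%, against 28.9% of all genes) and 1 lower (median 0.20). Among them Pdk4, which shuts pyruvate out of the cycle, stood out at 8.71 on Veh-Sham, 11.02 on GW-Sham, 9.65 on Veh-SA and 10.46 on GW-SA. Glycolysis had 1 of 14 higher (7.14%) and 3 lower (21.4%, against 14.4% of all genes), with a median of 0.22. Of the lower genes, Hk1, a hexokinase with a sperm form, read 14.37 on Veh-Sham and 10.49 on GW-Sham. In cholesterol synthesis 3 of 19 genes were higher (15.8%) and 3 lower (15.8%, near the 14.4% of all genes), with a median of -0.26. Fdft1, squalene synthase, was among the lower ones and read 13.04 and 11.26. Thermogenic genes were near background, with Ucp1 there on all 4 arrays. Secreted factors of fat were higher in 8 of 19 cases (42.1%, against 28.9% of all genes), with a median of 0.56. Among them were Igf1 (16.80 and 17.74), a growth factor, Sfrp5 (7.63 and 9.03), a Wnt antagonist, and Bmp4 (8.10 and 9.48).

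Genes of sphingomyelin and ceramide bear on the enzyme class that the drug inhibits. Smpd3, which encodes neutral sphingomyelinase 2, read 7.70 on Veh-Sham, 9.23 on GW-Sham, 8.09 on Veh-SA and 7.94 on GW-SA. GW-Sham stood 1.14 above the nearest other array, so on the deposited scale the higher level was not seen on GW-SA. The overloaded Smpd3 difference was -0.14 there, and it turns positive with centring on adipocyte genes, which raises every overloaded difference by 0.89. Smpd1, the acid sphingomyelinase of lysosomes, read 8.70 and 9.67 on the sham arrays. Smpd2 and Smpd4, other neutral sphingomyelinases, differed by 0.07 and -0.38. In the list 10 of 25 genes were higher and 2 lower, with a median of 0.47. The lower ones were Sgms2, a sphingomyelin synthase (9.65 and 8.44), and Smpd5, at 10.32 on Veh-Sham and background on GW-Sham. Smpd5 read 6.47 on Veh-SA and background on GW-SA. It stood 3.84 higher on Veh-Sham than on the nearest other array, so it was among the genes set aside. Vesicle release genes had the same median, 0.47, with 10 of 24 higher (41.7%, against 28.9% of all genes) and 0 lower. Of the 24, 14 read higher on both GW4869 arrays than on both vehicle arrays (58.3%, against 22.0% of all genes). By 1.5-fold, GW-Sham stood above both vehicle arrays for 3 of 24 (12.5%, against 7.97%). Rab27a, which docks vesicle-bearing endosomes at the membrane, differed by 1.18 in sham. Sdcbp, syntenin, read 14.05, 14.87, 14.25 and 15.11 on Veh-Sham, GW-Sham, Veh-SA and GW-SA.

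Genes of acute signalling were higher on GW-Sham. Immediate early genes were higher in 16 of 22 cases (72.7%, against 28.9% of all genes), with a median of 0.85. Fos, Fosb, Ier2 and Nr4a1 were at background on both sham arrays, and of the 13 genes above background on both, 8 were higher (median 0.73). Egr1, a growth-induced zinc finger factor, read 7.52 on Veh-Sham, 10.14 on GW-Sham, 8.05 on Veh-SA and 9.95 on GW-SA, and Myc read 6.79, 9.94, 8.44 and 9.83. Nr4a3, an orphan nuclear receptor, read 9.65 on GW-Sham and 9.40 on GW-SA against background readings on both vehicle arrays, at least 3.25 higher in sham. Of the glucocorticoid-induced genes 12 of 16 were higher and 0 lower (median 1.25), and 9 of 16 were higher against both vehicle arrays. Fkbp5, a chaperone of the glucocorticoid receptor and a common readout of the hormone, read 12.84, 14.36, 13.15 and 14.51 in that order. Tsc22d3, the leucine zipper induced by the hormone, differed by 0.88, and Per1 by 0.24. The lists overlap: Pdk4 and Angptl4 also count as metabolic genes.

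Of 14 clock genes 6 were higher (42.9%, against 28.9% of all genes) and 1 lower. Where both sham readings exceeded background 2 of 10 were higher and 1 lower. Arntl, which encodes BMAL1, the activator of the clock, read 8.89 on Veh-Sham, 10.45 on GW-Sham, 7.95 on Veh-SA and 8.87 on GW-SA, and GW-Sham was the highest. Dbp, an output gene that BMAL1 and CLOCK drive, read 12.71, 10.97, 14.69 and 13.24, and GW-Sham was the lowest. Cry1 read 7.66 on GW-Sham against background. Nr1d1, Per3, Per1 and Cry2 did not reach 1.5-fold, with differences of -0.43, -0.57, 0.24 and 0.43. The sources used here do not give the hour at which tissue was taken. Heat shock genes had 4 of 13 higher (30.8%, near the 28.9% of all genes) and 4 lower (30.8%, against 14.4%). Hspa4l, a testis-rich chaperone, read 12.51 on Veh-Sham and 9.20 on GW-Sham. Unfolded protein response genes had 4 of 19 higher (21.1%) and 2 lower (10.5%). Hmox1, the haem-degrading enzyme that macrophages and oxidative stress induce, differed by 2.28, while the oxidative defence list around it had a median of 0.15. The median over ribosomal protein genes was 0.06.

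Of the mesothelial genes, of the lining of the fat pad, 8 of 13 were higher (61.5%, against 28.9% of all genes) and 2 lower (15.4%, against 14.4%). All 8 were also higher against both vehicle arrays, and the list median was 0.69. Upk3b read 13.48, 14.17, 12.98 and 12.58 on Veh-Sham, GW-Sham, Veh-SA and GW-SA, and Lrrn4 8.61, 9.88, 8.72 and 8.84, with GW-Sham highest in both. The lower members, Krt8 and Krt18, are keratins that tract epithelium shares, and both read highest on GW-SA. Endothelial genes were higher in 5 of 16 cases (31.3%, near the 28.9% of all genes; median 0.38), and smooth muscle genes in 2 of 13 (15.4%), with 1 lower (median 0.30). Pecam1, an adhesion molecule of endothelium, differed by 0.45. Cnn1, the calponin of smooth muscle, was high on both sham arrays alike, at 15.23 and 15.31 against 6.55 and 10.17 on Veh-SA and GW-SA. Skeletal muscle genes did not differ by 1.5-fold in any of the 5 above the floor. The part of these cells in the immune and matrix differences was not tested.

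The genes for which GW-Sham stood furthest above each other array were, beside Ccl21b and Ccl21c, Lgals7, Fam180a, Rspo3, Ptprq, Rspo1 and Arrdc3. Lgals7, a galectin of epithelia, read 6.96 on Veh-Sham, 8.87 on GW-Sham, 6.81 on Veh-SA and 6.54 on GW-SA. Rspo1, a secreted booster of Wnt signals, read 8.88 and 10.65 on the sham arrays, with GW-Sham 1.65 above the next highest array, and its relative Rspo3 7.11 on GW-Sham against background on the other arrays. Arrdc3, an arrestin-like protein that dampens beta-adrenergic receptors, read 10.45, 12.08, 10.33 and 10.43. For Lgals7, Rspo1 and Arrdc3 the other 3 arrays lay closer to each other than to GW-Sham, and Fam180a read 6.67, 7.30 and 7.91 on them and 9.80 on GW-Sham. Of the 8 ranked genes for which GW-Sham stood furthest below, Dbp alone was well above background there. The others, Mllt11, Cfap61, Cabs1, Tcp10c, Igsf11, Lelp1 and Lrriq1, read background on GW-Sham and 6.86 to 14.36 on Veh-Sham, at least 2.02 log2 units above each other array. The 10 lowest differences outside the genes set aside were in Wfdc10, Eppin, Ptgds, C4bp, Wfdc8, Gstm7, Spink12, Defb29, Ramp3 and Wfdc11. All 10 read 7.75 to 14.17 on Veh-Sham and GW-SA and were lower on GW-Sham and Veh-SA. The ranking left out genes raised by 1 log2 unit on Veh-Sham alone, so a high reading on Veh-SA or GW-SA was fixed by it. Which of these arrays read high was not fixed. Several of the 10, such as Eppin and the Wfdc and beta-defensin genes, are epididymal secretory proteins. Outside the genes set aside, 230 of the 760 lower genes were at least 1.5-fold higher on GW-SA than on Veh-SA (30.3%, against 18.4% of all genes). Before genes were set aside, 464 of 1690 lower genes were (27.5%), so the selection bears on this share.

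The same drug contrast in overloaded mice, GW-SA minus Veh-SA, shares no array with the sham contrast. There 2156 genes were higher (18.4%) and 2202 lower (18.8%). Of the 3385 genes higher in sham, 774 were higher in overloaded mice (22.9% of the sham set and 35.9% of the overloaded set) and 659 lower (19.5% and 29.9%). Of the 1690 lower in sham, 275 were lower in both (16.3% and 12.5%) and 464 higher in overloaded mice (27.5% and 21.5%). Immune genes were mostly higher in both: the programme median was 1.25 in sham and 0.70 in overloaded mice, where 79 of 148 were higher and 19 lower. The macrophage list had 1.62 and 0.89, chemokines 1.81 and 1.02, and interferon-induced genes 1.08 and 1.30. Matrix genes had 0.81 in sham and -0.22 in overloaded mice, where 18 of 122 were higher and 28 lower, and metabolic genes 0.23 and -0.69, where 15 of 247 were higher and 144 lower. Both overloaded medians changed sign with arrays centred on adipocyte genes, to 0.67 for matrix and 0.21 for metabolic genes, and the immune one became 1.60. GW-SA carried epididymal transcripts, with a list median of 13.15 against 3.81 on GW-Sham and 5.02 on Veh-Sham, and adipocyte genes stood 0.83 lower there than on Veh-SA as a median. The part of these in the overloaded values was not tested.

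**Figure D5:**
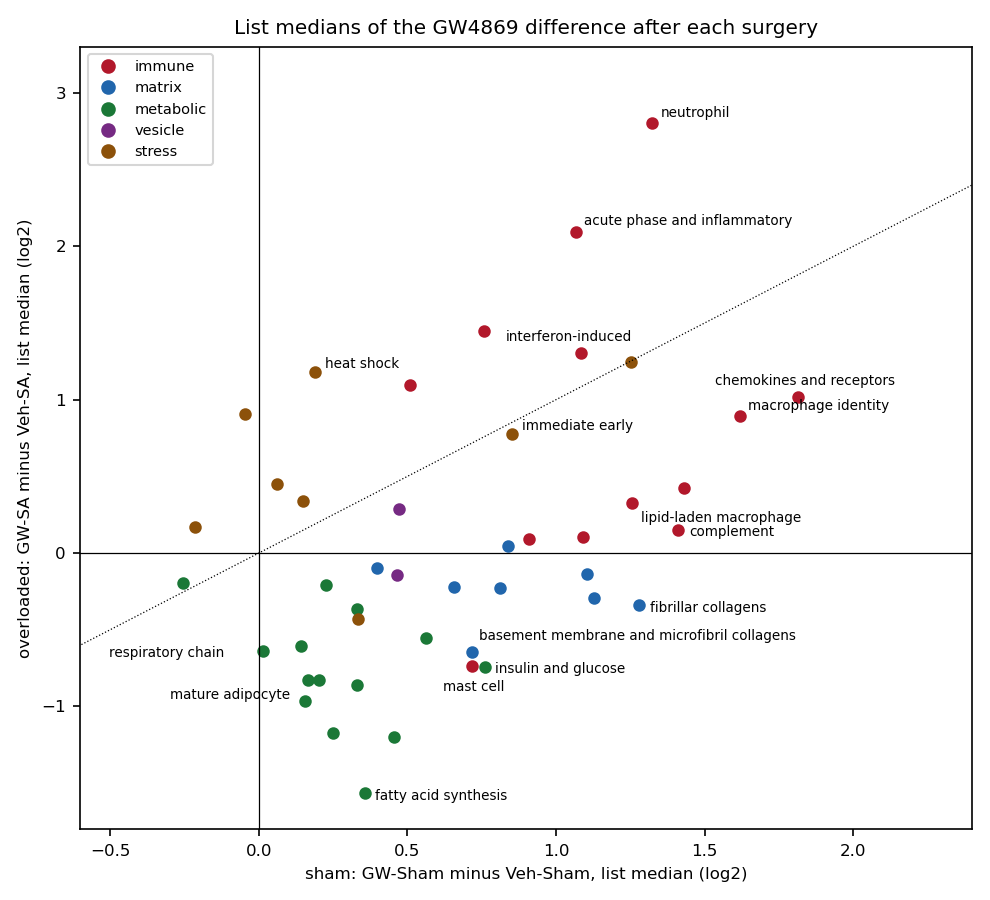
Median log2 difference of each list in sham mice (GW-Sham minus Veh-Sham, x axis) and overloaded mice (GW-SA minus Veh-SA, y axis), coloured by programme, with a dotted line of equal values. Immune lists other than the mast cell list lie above 0 on both axes, matrix lists lie right of 0 and at or under 0.05 on the y axis, and the metabolic lists lie under 0 on the y axis. Centring on adipocyte genes raises every y value by 0.89, which puts all matrix lists and all metabolic lists but fatty acid synthesis, triglyceride synthesis, branched-chain amino acid breakdown and thermogenic genes above 0.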

How the data were processed

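RNA of epididymal fat was hybridised to Clariom S Mouse arrays, 1 per group. The authors deposited log2 values, 1 per probe set and array. The submitters' processing notes name Partek and RMA, without versions. RMA fits all arrays together, and the 4 arrays were taken to share a scale, which was not tested. Medians over all table rows ran from 5.52 on Veh-SA to 5.71 on Veh-Sham. The values were used as deposited, with no further normalization.

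The deposited table held 28846 rows, of which 19572 probe sets were named by GEO's platform annotation, and 0 carried several symbols. Each gene was represented by its brightest probe set on average, which gave 19505 genes; 55 had several, and in 2 of these they differed by 1.5-fold in opposite directions. The floor, log2 4.67, was set at percentile 40 of the genes' mean values, and background at the 95th percentile of 23 antigenomic probes on each array. A trend on signal was fitted by lowess. Promoter windows were those of RefSeq on GRCm38.p6. Python 3.11.15, numpy 2.4.6, pandas 2.3.3, statsmodels 0.14.6 and matplotlib 3.10.9 were used, and the counting was tested on simulated data.

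The comparison and its lists were chosen with earlier results of these data known. Genes were named by rule: outside the tract lists, gene models and chemosensory receptors, the 10 highest and 10 lowest differences among genes not raised by 1 log2 unit on Veh-Sham alone, the 8 highest and 8 lowest for which GW-Sham stood apart, up to 5 members with the largest differences and the best known members of each list, the sphingomyelinases, and up to 6 tract genes. Other sphingolipid and tract genes beyond the rule were named after their values were seen. Alternatives covered centring, the signal trend, filters, tract genes, the floor, probe sets and a 2-fold threshold. The alternatives for the counts of an array that stands apart and for the overloaded mice, the count against both vehicle arrays, the centring on all table rows and the adipocyte-centred medians in overloaded mice were added after seeing the data.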

Additional observations from a re-analysis of the deposited data

Results flagged for a closer look

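The sham and overloaded contrasts pointed in opposite directions for the results given here, and with 1 array per group the difference between the contrasts was not tested. Each value is the sham difference followed by the overloaded one, on the log2 scale. Centring on adipocyte genes raises the overloaded differences by 0.89 and turns the overloaded value positive for the mast cell list (0.16), basement membrane and microfibril collagens (0.25), insulin and glucose genes (0.15) and Ccl21b and Ccl21c (0.16). The mast cell list had medians of 0.72 and -0.74, basement membrane and microfibril collagens 0.72 and -0.65, and insulin and glucose genes 0.76 and -0.74. Ccl21b and Ccl21c, with 1 set of values between them, had 2.83 and -0.74.

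Genes of the reproductive tract made up the rest. The tract programme as a whole had medians of -3.20 and 1.27. Secretory and other genes high on Veh-Sham and GW-SA were Wfdc10 (-8.11 and 9.46), Eppin (-8.10 and 8.06), Ptgds (-7.38 and 7.94), C4bp (-5.89 and 5.56), Wfdc8 (-5.65 and 7.81), Gstm7 (-4.86 and 4.24), Spink12 (-4.43 and 6.91), Defb29 (-4.37 and 3.85), Ramp3 (-3.78 and 3.19) and Wfdc11 (-3.43 and 4.24). Sperm and testis genes had medians of -10.89 and 0.60. Among genes high on Veh-Sham alone were Prm2 (-14.26 and 1.42), Defb38 (-13.07 and 0.78), Prm1 (-12.69 and 1.91), Odf1 (-12.42 and 1.80), Fabp9 (-12.02 and 0.63), Lelp1 (-11.63 and 1.27) and Mllt11 (-5.15 and 0.70). Many of these readings were in background on GW-Sham or Veh-SA, so the sizes are not folds.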

How the results depend on the processing

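No paired analysis was possible because each group had 1 array, and for the same reason no array could be left out. Genes higher in sham numbered 1708 with the signal trend removed and 1394 at 2-fold, against 3385. Lower genes numbered 2961 with no filter, 778 with both sham readings above background and 760 without genes raised by 1 log2 unit on Veh-Sham or on tract lists, against 1690. The immune median of 1.25 became 0.97 with the trend removed, 0.95 with no filter and 1.40 with centring on all table rows. The matrix median of 0.81 became 0.48 and 0.96, and the metabolic median of 0.23 became 0.019 and 0.38, with the trend removed and with that centring. Immune list medians stayed above 0 in every setting run.

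Genes with GW-Sham above each other array numbered 573 with no filter and 209 above background, against 345. Those below numbered 77 with adipocyte centring, 225 with no filter, 30 above background, 67 without the raised genes and 75 with values set to the floor, against 130. Genes with Veh-Sham above each numbered 2064 with no filter, 482 above background and 248 without the raised genes, against 1171, and below each 855 above background, against 1340. Genes with GW-Sham above both vehicle arrays numbered 2021 with adipocyte centring and 579 above background, against 933. In overloaded mice 7854 genes were higher with adipocyte centring and 1281 above background, against 2156, and 181 were lower with that centring and 3785 with no filter, against 2202. The Leydig list median of -7.42 became 0.64 above background, where 1 gene was left. The cause of the shifts under trend removal and centring was not tested. Signal over background limits the lymphocyte, neutrophil and dendritic cell lists. It also limits the chemokine and interferon-induced lists, where 9 of 20 and 11 of 19 genes exceeded background on both sham arrays.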
